A study of Mus musculus with 6 samples.

Results

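Sprouty and Spred genes encode the intracellular feedback inhibitors of receptor tyrosine kinase signalling. All 6 genes chosen by name, Spry1, Spry2, Spry4, Spred1, Spred2 and Spred3, were found among the 4994 genes of the deposited table. The set is not the whole family, since the Sprouty gene Spry3 was not a member and is not analysed here. RNA was sequenced from inner ear organoids, which are 3-dimensional cultures of wild-type mouse cells that the labels call epithelial. The 3 PD libraries came from organoids given 1 µM PD0325901, a blocker of the protein kinases MEK1 and MEK2; the 3 DMSO libraries came from organoids given as much of the solvent, in either case for 10 days. Both groups grew in the same medium with 20 ng/mL EGF, 10 ng/mL bFGF, 50 ng/mL IGF and 3 µM CHIR99021, a GSK3 inhibitor, so ligands of receptor tyrosine kinases were supplied in the controls too. The labels do not give the age or number of the source animals, nor whether libraries of a group came from cultures of their own, so the p-values refer to the spread between these libraries alone, which may be technical.

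A growth factor receptor passes its signal through Ras and Raf to MEK and then to ERK, and ERK-driven transcription factors of the ETS and immediate early classes switch on inhibitors of the same route. Sprouty proteins, which share a cysteine-rich domain with Spred proteins, act between the receptor and Raf. Spred proteins carry an EVH1 domain as well, and Spred1 brings neurofibromin, a GTPase activating protein, to Ras at the membrane. In the mouse inner ear, FGF signalling through this route takes part in forming the otic placode and in patterning the sensory epithelium, and loss of Spry2 alters the supporting cells of the organ of Corti.

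The start regions of Spry2, Spry1 and Spred1 are shown because they belong to a Sprouty gene that kept little of its signal in PD, a Sprouty gene that kept more, and the member that kept the most. They are RefSeq sequences of GRCm38.p6, the assembly named mm10, from 250 bases before to 50 after the gene start on the gene's strand, and the capitals mark CGGAA or its complement TTCCG, a core that ETS factors bind.
Spry2 (chr14:105896770-105897069, minus strand): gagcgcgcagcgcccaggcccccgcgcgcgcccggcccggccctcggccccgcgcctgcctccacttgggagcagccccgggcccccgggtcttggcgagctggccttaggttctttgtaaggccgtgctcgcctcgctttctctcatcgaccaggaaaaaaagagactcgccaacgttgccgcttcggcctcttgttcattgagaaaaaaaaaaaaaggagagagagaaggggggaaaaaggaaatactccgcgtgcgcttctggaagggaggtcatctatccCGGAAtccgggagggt
Spry1 (chr3:37639697-37639996, plus strand): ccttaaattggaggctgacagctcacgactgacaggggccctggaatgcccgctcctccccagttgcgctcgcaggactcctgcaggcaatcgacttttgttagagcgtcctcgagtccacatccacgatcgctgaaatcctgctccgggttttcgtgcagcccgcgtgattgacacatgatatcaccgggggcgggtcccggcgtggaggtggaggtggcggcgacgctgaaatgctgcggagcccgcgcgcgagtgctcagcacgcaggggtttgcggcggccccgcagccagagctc
Spred1 (chr2:117120821-117121120, plus strand): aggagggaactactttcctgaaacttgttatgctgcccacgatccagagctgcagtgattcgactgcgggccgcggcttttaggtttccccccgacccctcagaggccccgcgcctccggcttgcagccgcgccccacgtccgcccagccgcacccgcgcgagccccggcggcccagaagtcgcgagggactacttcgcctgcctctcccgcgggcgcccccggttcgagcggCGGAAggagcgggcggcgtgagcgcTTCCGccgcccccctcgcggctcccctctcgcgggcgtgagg
In Spry2 the match begins 35 bases into the transcript, and in Spred1 the matches begin at -17 and 9 relative to the RefSeq start. Spry1 has none in this window. The RefSeq starts of Spry1 and Spry2 are those of the GENCODE annotation used for gene coordinates here, whereas they lie 67 bases apart for Spred2, 303 for Spred1 and 1764 for Spred3, so the Spred1 window ends before the GENCODE start.

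All 6 members were lower in PD than in DMSO organoids, and in each of them the groups did not overlap. Spry2 and Spry4 kept 13.1% and 12.0% of their DMSO mean, whereas Spred2, Spry1, Spred3 and Spred1 kept 38.1%, 41.9%, 44.8% and 55.3%. All 6 passed limma's adjusted threshold of 0.05, beside 95.5% of all genes in the table in either direction and 51.1% in the lower direction. Groups did not overlap in 95.2% of all genes in either direction and in 50.6% with PD lower. The authors had selected every gene of the table on this same contrast, with a fold of about 1.5 or more and an adjusted p of at most 0.0499, so these shares and calls are no independent evidence that the members differ. The median log2 difference, on log2(value + 1), was -1.26 over the members and -0.42 over all 4994 genes, which include those that rose. Over the 2550 genes called lower it was -0.91, and Spred1, at -0.84, fell less than that.

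**Figure D1:**
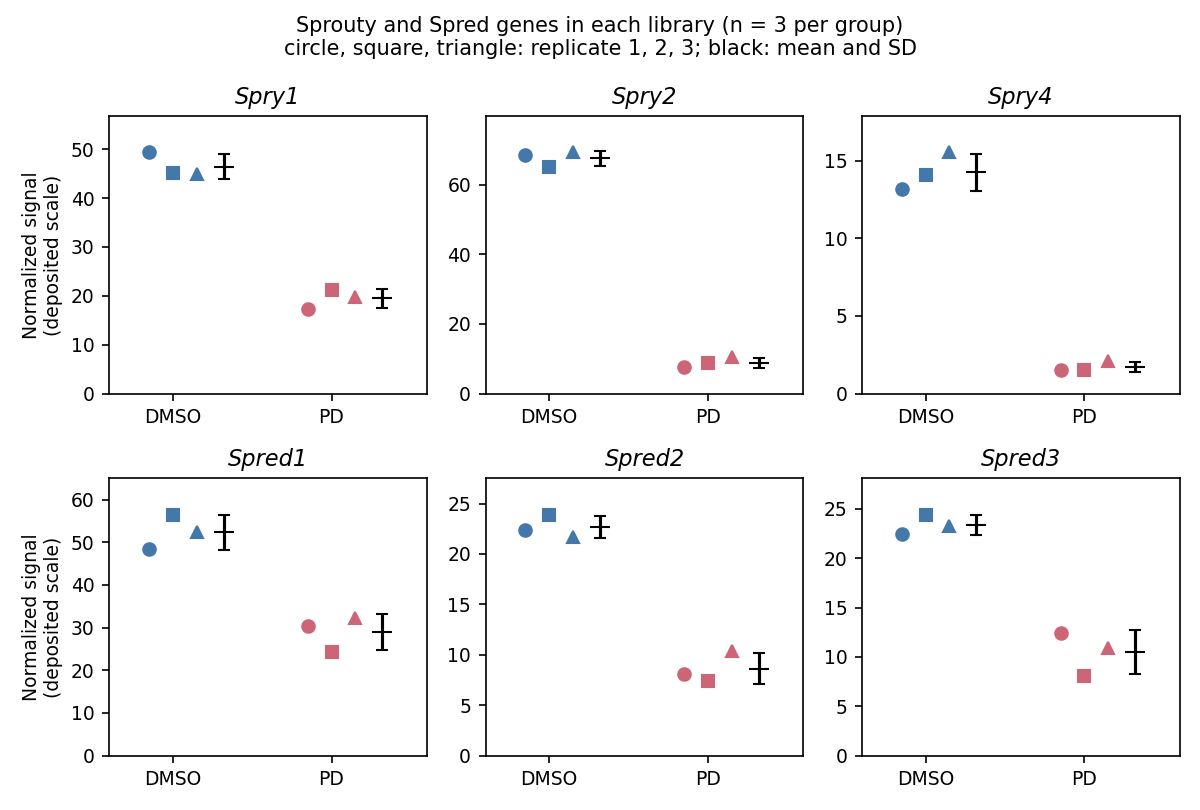
Normalized signal on the deposited scale (y axis, from 0) of each member in the DMSO and PD libraries, with circles, squares and triangles for replicates 1, 2 and 3 and black marks for the mean and SD (n = 3). In every panel the lowest DMSO library lies above the highest PD library.

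Among the Sprouty genes, Spry2 (ENSMUSG00000022114, chromosome 14, 105891947 to 105896819, minus strand) encodes the family member best known for binding the ubiquitin ligase Cbl and for limiting FGF signals. Its normalized signal was 68.5, 65.18 and 69.26 in the DMSO libraries and 7.5, 8.75 and 10.4 in the PD libraries. Every PD library thus stood far under every DMSO library, and the lowest DMSO value was 6.27 times the highest PD value. The means were 67.6 ± 2.17 and 8.88 ± 1.45 (SD, n = 3), and the log2 difference was -2.81 ± 0.11 (SE; adjusted p = 1.13e-06, limma). Of the 4994 genes, 1.56% had a lower log2 difference than Spry2. For Spry4, Spred2, Spry1, Spred3 and Spred1 this share was 2.30%, 13.7%, 15.7%, 19.0% and 28.6%.

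Spry4 (ENSMUSG00000024427, chromosome 18, 38586247 to 38601415, minus strand) encodes a Sprouty that inhibits Ras activation and whose transcript is widely read as an output of ERK activity. Its signal was 13.15, 14.1 and 15.52 in DMSO and 1.54, 1.49 and 2.11 in PD. Every PD library was far under every DMSO library, with the highest PD value in replicate 3 and an SD of 20.1% of the PD mean. From 14.3 ± 1.19 the mean fell to 1.71 ± 0.344 (SD, n = 3), or by -2.50 ± 0.14 on the log2 scale (SE; adjusted p = 3.78e-06, limma). Because the PD values were near the pseudocount of 1, this difference understates the change, and it was -2.998 with a pseudocount of 0.1 and -1.52 with a pseudocount of 5.

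Spry1 (ENSMUSG00000037211, chromosome 3, 37639947 to 37644598, plus strand), which encodes an antagonist of GDNF and FGF signals in the developing kidney, kept more of its signal. The DMSO libraries gave 49.32, 45.04 and 44.97 and the PD libraries 17.4, 21.22 and 19.82. The groups were separate, with the lowest DMSO value 2.12 times the highest PD value. Spry1 fell from 46.4 ± 2.49 to 19.5 ± 1.93 (SD, n = 3), the log2 difference being -1.22 ± 0.09 (SE; adjusted p = 1.39e-05, limma). On the opposite strand the annotated gene Gm42922 covers 24.4% of the exon bases of Spry1, and since it is not known whether counting used strand, reads of that stretch cannot be assigned to either gene.

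Of the Spred genes, Spred1 (ENSMUSG00000027351, chromosome 2, 117121374 to 117182279, plus strand), whose human counterpart is mutated in Legius syndrome, lost the smallest share. It measured 48.35, 56.5 and 52.3 in DMSO and 30.4, 24.28 and 32.28 in PD. These groups stood nearer to each other than those of any other member, with the lowest DMSO value 1.498 times the highest PD value. The means were 52.4 ± 4.08 and 29.0 ± 4.18 (SD, n = 3), and the log2 difference was -0.84 ± 0.12 (SE; adjusted p = 0.000292, limma). It is the member that the scaling moved most as a ratio, to a log2 difference of -0.49 (limma adjusted p = 0.00513) with median-of-ratios scaling over the table's genes.

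Spred2 (ENSMUSG00000045671, chromosome 11, 19924375 to 20024026, plus strand) encodes a broadly expressed Spred that holds back Raf activation. Its signal was 22.41, 23.91 and 21.72 in DMSO and 8.1, 7.44 and 10.37 in PD. PD replicate 3 was the highest PD library and still under every DMSO library. Spred2 fell from 22.7 ± 1.12 to 8.64 ± 1.54 (SD, n = 3), the log2 difference being -1.31 ± 0.13 (SE; adjusted p = 4.77e-05, limma).

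Spred3 (ENSMUSG00000037239, chromosome 7, 29158829 to 29170411, minus strand) encodes a Spred that lacks a working receptor-binding stretch found in Spred1 and Spred2. Its libraries read 22.41, 24.41 and 23.24 in DMSO and 12.4, 8.04 and 10.95 in PD. PD replicate 2 was low and PD replicate 1 high, and the PD values spread over 21.2% of their mean (SD), the widest relative spread of the members. The means were 23.4 ± 1.00 and 10.5 ± 2.22 (SD, n = 3), and the log2 difference was -1.11 ± 0.15 (SE; adjusted p = 0.000248, limma). Spred3 shares 3.25% of its exon bases with Ggn on the opposite strand. In the authors' deposited table the fold of Spred3 was 0.367, that is 36.7% of control, against 44.8% from the means of the deposited values. That table put the other members at folds of 0.117 for Spry4, 0.128 for Spry2, 0.36 for Spred2, 0.401 for Spry1 and 0.548 for Spred1.

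**Figure D2:**
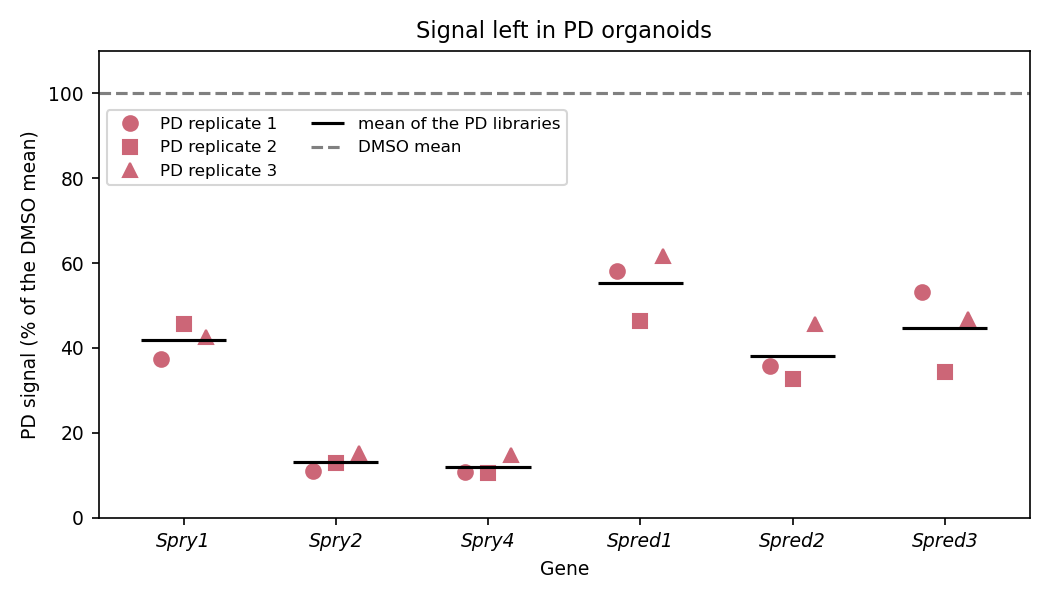
Signal of each member in each PD library as a percentage of its DMSO mean (y axis, from 0), with black lines for the mean of the PD libraries and a dashed line for the DMSO mean. Spry2 and Spry4 lie between 10.5% and 15.4%, and the other 4 members between 32.8% and 61.6%.

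In these libraries the mean falls of the members differed in size. Levels of different members are not compared here, because the sources do not state whether the values were divided by gene length. The smallest nonzero value was 0.04 for exon lengths up to 2000 bases and 0.01 above 4000 bases, which alone does not settle this. The summed marker signals given below carry the same limit. Members were compared by the change of one relative to another within each library, on log2(value + 1), a measure that still depends on the pseudocount where values are low. In all 8 pairs of Spry2 or Spry4 with another member, the difference between the 2 genes moved between the groups without overlap, by 1.19 to 1.97 on the log2 scale, and Spry2 or Spry4 fell further. With a pseudocount of 5 the 8 pairs still did not overlap, but the 4 that hold Spry4 shrank to 0.45 to 0.76. Over all 15 pairs, 11 did not overlap and 4 did. The 8 pairs were grouped with the falls of the members in view, so their separation is no independent evidence. How often other pairs of genes in the table separate was not computed. An exact two-sided permutation test of 3 against 3 libraries cannot go below 0.10, the value of each of the 11 pairs (0.136 after Benjamini-Hochberg adjustment over the 15 pairs), so no pair could pass the threshold.

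Within the Sprouty family, Spry2 fell further than Spry1 by 1.59 ± 0.11 on the log2 scale (SE), and Spry4 further than Spry1 by 1.28 ± 0.16. Spry2 against Spry4 gave -0.31 ± 0.09 with a pseudocount of 1, but 0.07 with a pseudocount of 0.1, where the groups overlapped, so an order of these 2 genes is not given. Within the Spred family, Spred1 changed less than Spred2 by 0.47 ± 0.09 and less than Spred3 by 0.27 ± 0.09, without overlap in either pair. With a pseudocount of 5 these became 0.27, and 0.12 with overlap for Spred3. Spred2 against Spred3 overlapped, at -0.20 ± 0.16. Spry1 overlapped with all the Spred genes, at -0.38 ± 0.21 against Spred1, 0.09 ± 0.17 against Spred2 and -0.11 ± 0.25 against Spred3. On this measure Spry1 was thus nearer to the Spred genes than to Spry2 and Spry4.

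PD replicate 3 held the highest PD value in 4 of the 6 members, and PD replicate 2 the lowest in 4, including all 3 Spred genes. In DMSO the SD was 3.21% to 8.37% of the mean, and in PD 9.92% to 21.2%. No library changed the direction or the call of a member when it was left out. With any library left out, 4626 to 4660 of the 4994 genes, all selected on this contrast, were called.

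Further up the pathway are the receptor and ligand genes. Of 37 such genes listed for this purpose, 20 are not analysed here and 17 were in the table, where 12 rose and 5 fell (median log2 difference 1.03, against -0.42 over all genes). In the table as a whole 44.5% of genes were called higher and 51.1% lower. Igf1, a ligand gene, rose from 1.58 ± 0.391 to 26.1 ± 1.41, the HGF receptor gene Met from 21.2 ± 0.936 to 63.4 ± 3.47 and the FGF receptor gene Fgfr1 from 49.9 ± 3.9 to 122 ± 8.97 (SD, n = 3). Ret, which encodes the GDNF receptor kinase, fell from 127.7 ± 8.94 to 13.1 ± 3.15, and kept 10.2% of its DMSO mean. The other receptor and ligand genes had log2 differences from -0.95 for Igf1r to 2.23 for Egf. Several of them had low signals. Among those that rose were Nrg1 (mean 0.0933 to 0.64), Erbb4 (0.0533 to 0.34) and Pdgfra (0.467 to 1.07). Hgf (1.11 to 0.293) and Pdgfrb (1.38 to 0.697) were among those that fell.

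Of 22 adaptor and Ras cycle genes, 5 were in the table, 2 higher and 3 lower. Nf1, the gene of neurofibromin, fell from 31.1 ± 2.47 to 17.6 ± 1.89, beside its partner Spred1. Rras fell with a log2 difference of -0.70, and Shoc2 and Mras, whose products activate Raf together, rose by 0.60 and 0.52. Median-of-ratios scaling moved these values to -0.45 for Nf1, -0.36 for Rras, 0.95 for Shoc2 and 0.84 for Mras, all still called. Under these, 3 of 12 genes of Raf, MEK, ERK and their scaffolds were listed. Map2k1, which encodes the drug's target MEK1, fell from 230.7 ± 6.33 to 79.3 ± 1.61, and the scaffold genes Ksr1 and Ksr2 rose by 1.12 and 0.46 on the log2 scale.

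The listed genes of the phosphatase class fell, as the Sprouty and Spred genes did. Of 10 MAP kinase phosphatase genes 5 were listed and all 5 fell, with a median log2 difference of -1.72. In the table as a whole 51.1% of genes were called lower. Dusp6, the ERK phosphatase, went from 149.8 ± 3.58 to 12.3 ± 1.33 and Dusp4, a nuclear one, from 21.9 ± 0.893 to 1.497 ± 0.641 (SD, n = 3). Dusp1 and Dusp8 fell with log2 differences of -1.72 and -1.12. The signals of Dusp8 and Dusp9 were low, with means going from 1.87 to 0.317 and from 0.59 to 0.183. Other receptor feedback genes split, since Lrig3 rose by 1.13 and Socs3, a cytokine receptor inhibitor, fell with a log2 difference of -1.19. The other 7 of 9, Spry3 among them, are not analysed here.

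Of 14 ERK transcription targets 11 were listed, with 10 lower and 1, Myc, higher (median log2 difference -1.54), beside 51.1% of all genes called lower. The ETS genes Etv4, Etv5 and Etv1 had log2 differences of -3.74, -3.21 and -1.82, and the immediate early gene Egr1 -3.34. The log2 differences of Spry2 and Spry4 lay between those of Etv5 and Etv1 on this scale; differences between these genes were not tested. Among 16 partners and regulators of Sprouty and Spred proteins, 4 were listed. Egln3 and Egln1, which encode oxygen-sensing prolyl hydroxylases reported to act on Sprouty2 in human cells, fell with log2 differences of -4.40 and -1.92. Cav1, the caveolin gene, rose from 3.69 ± 0.467 to 32.3 ± 9.23, and Tesk1, a kinase gene whose product binds Sprouty and Spred proteins, rose by 0.60, or by 0.93 with median-of-ratios scaling. These lists were chosen with earlier results of the data known, and 73 of their 120 genes are not analysed here.

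**Figure D3:**
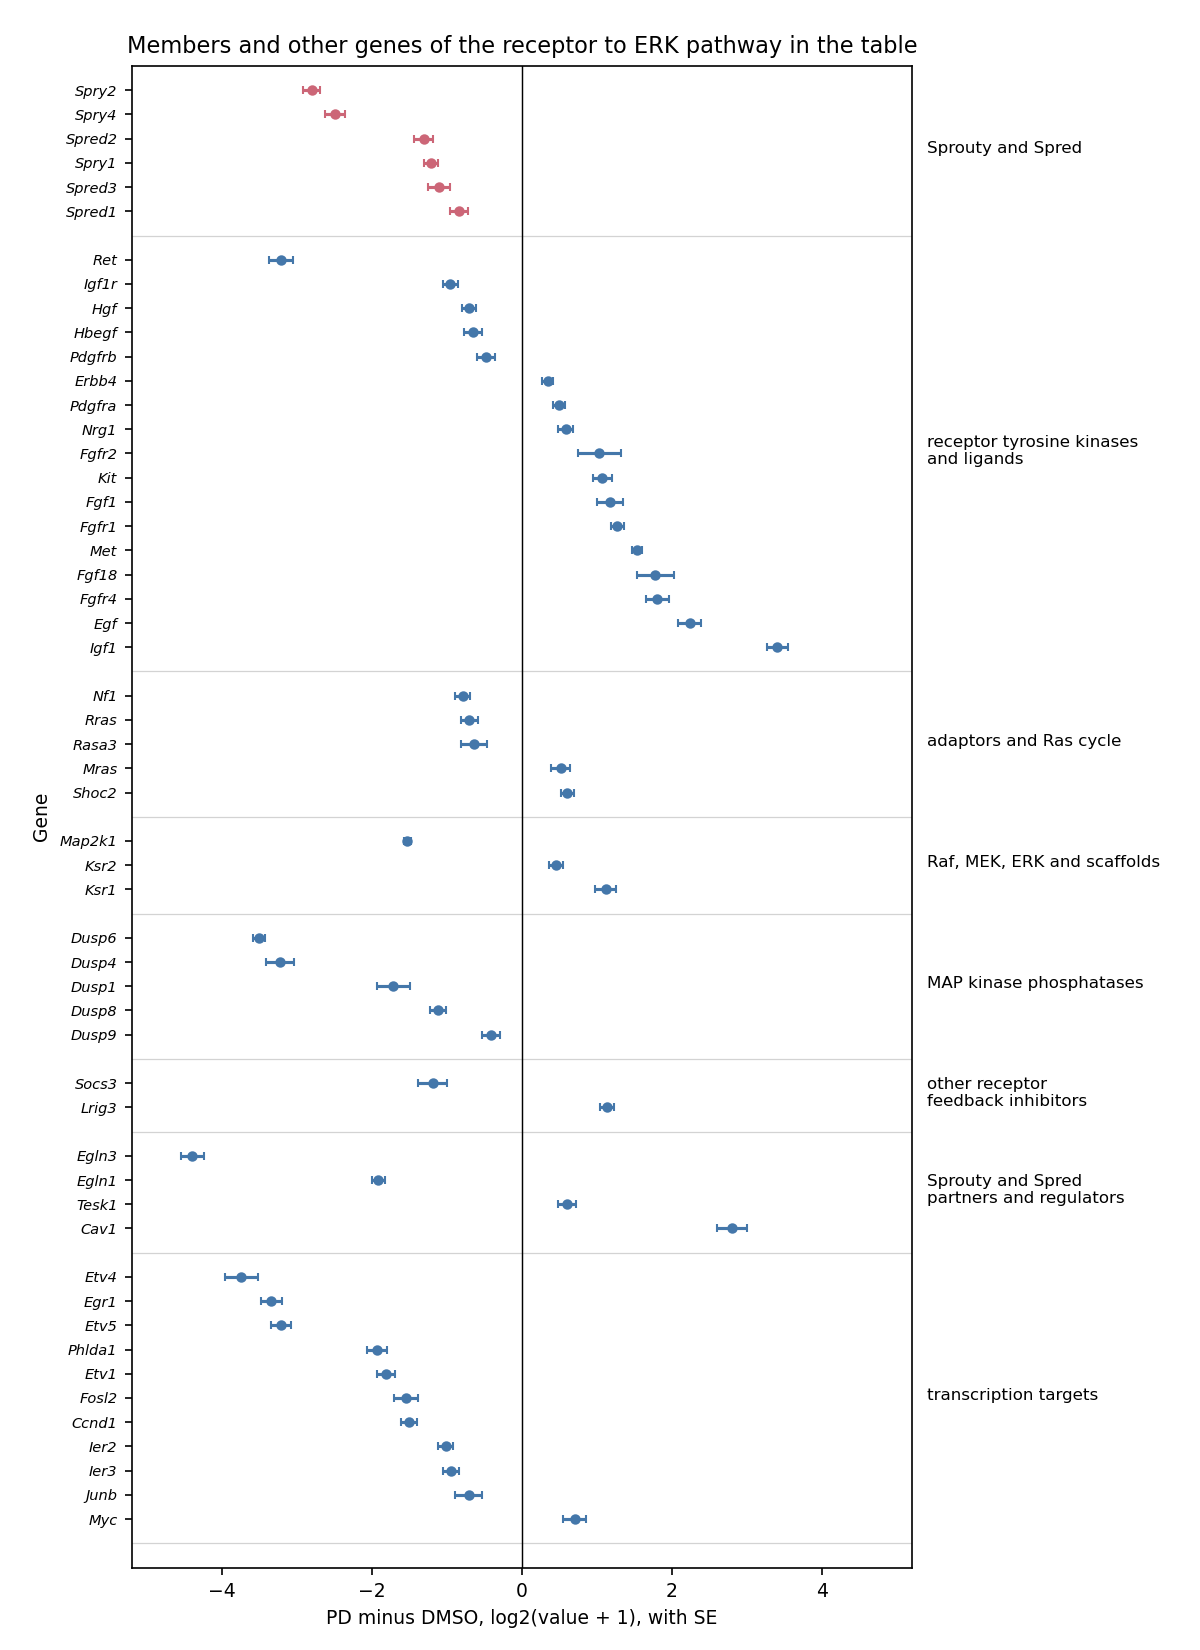
Log2 difference, PD minus DMSO, on log2(value + 1) with SE (x axis) for the 6 members in red and the 47 other listed pathway genes in blue, grouped by role (n = 3 per group). All 6 members and all 5 phosphatase genes lie left of 0, and 12 of 17 receptor and ligand genes lie right of it. Of all genes in the table, 51.1% were called lower and 44.5% higher.

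The genes whose profile over the 6 libraries lay nearest to the mean profile of the members, by Euclidean distance of centred log2(value + 1) among 3011 candidates, were Brca1, Dtl, Trib1, Me1 and Chaf1b. Their distances were 0.101 to 0.143. Brca1, a DNA repair gene, went from 14.3 ± 0.376 to 4.12 ± 0.512. The replication gene Dtl went from 30.6 ± 1.75 to 9.66 ± 1.37, and Trib1, a pseudokinase gene, from 13.0 ± 0.783 to 3.39 ± 0.511. Me1, a malic enzyme gene, went from 162.9 ± 12.7 to 53.3 ± 4.38, and Chaf1b, a chromatin assembly gene, from 28.4 ± 0.956 to 8.52 ± 0.623 (SD, n = 3). The members themselves differ around that mean profile, so these genes match its middle and neither of its extremes.

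Start regions were available for Spry1, Spry2, Spred1, Spred2 and Spred3. CGGAA, searched on both strands, was present in 3 of these 5, in Spry2, Spred1 and Spred2, and in 29.9% of 32851 start regions of the same length. It was present in 40.2% of start regions of genes called lower and in 34.3% of those of genes called higher. GGGCGG, the core bound by Sp1, was in 4 of 5 and in 35.7% of all start regions, in 60.7% of those of genes called lower and in 55.8% of those of genes called higher, and in Spred2 it shares bases with a CGGAA match. TGANTCA, bound by AP-1 factors, and the CArG box of serum response factor were in 0 of the 5, against 7.81% and 1.63% of all. The 5 member windows were 55% to 72.3% GC, against a median of 52.7% over all start regions, and the shares were not matched for GC. These matches describe letters in a short window and say nothing on binding.

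RNA was not measured cell by cell, and the cell types within the organoids were not counted. Fewer cells of a type and less RNA per cell thus cannot be told apart for any of these genes. Of 10 otic and other epithelial markers 7 were listed, 2 higher and 5 lower, with a summed signal of 1931 to 2034 in DMSO and 1062 to 1118 in PD and none at 0. Epcam fell from 836 ± 31.7 to 514.2 ± 15.7 (log2 difference -0.70), Krt18, Krt8 and Cldn6 fell with log2 differences of -2.44, -1.61 and -1.31, in the range of the members, and Sox2 with -0.70. Cdh1, the epithelial cadherin gene, rose from 53.6 ± 1.54 to 114 ± 9.27 and Oc90, an otoconial protein gene, by 0.69 on the log2 scale. All 10 mesenchymal markers were listed, 7 higher, 1 lower and 2 not called, and summed to 1738 to 1911 in DMSO and 3972 to 4487 in PD, with Col1a2 at 0 in a DMSO library. Most of both sums was Lum, Dcn and Vim, whose means went from 619 to 1794, 767 to 1603 and 445 to 803. Col1a1 (0.903 to 0.67) and Col1a2 (0.0167 to 0.133) were low and not called, and Pdgfrb fell from 1.38 to 0.697. Listed hair cell markers (4 of 7, with 3 higher and 1 lower) summed to 4.09 to 5.38 and 11.8 to 16.2. Most of that PD sum was Calb1, at 11.6 ± 2.57, and most of the DMSO sum was Tmc1, which fell from 4.003 ± 0.266 to 0.627 ± 0.272, while Pou4f3 and Otof stayed under 1. Neuronal markers (4 of 5, all higher) summed to 0.67 to 0.85 and 6.92 to 7.65. Endothelial ones (4 of 5) summed to 45.8 to 49.4 and 35.7 to 42.2, with Tek lower, from 35.3 ± 3.00 to 9.11 ± 0.729, and Cdh5, Kdr and Emcn higher. Of the leukocyte markers, 1 of 3 was listed, Ptprc, at 0 in every DMSO library and at most 0.21 in PD. The part of these shifts in the fall of the members was not tested. Across all listed genes, which are not independent replicates, Pearson's r of the log2 values was 0.983 to 0.988 for libraries of a group and 0.837 to 0.843 for libraries of different groups. The authors kept only genes that differ between the groups, so a lower r between groups was built in by that selection.

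**Figure D4:**
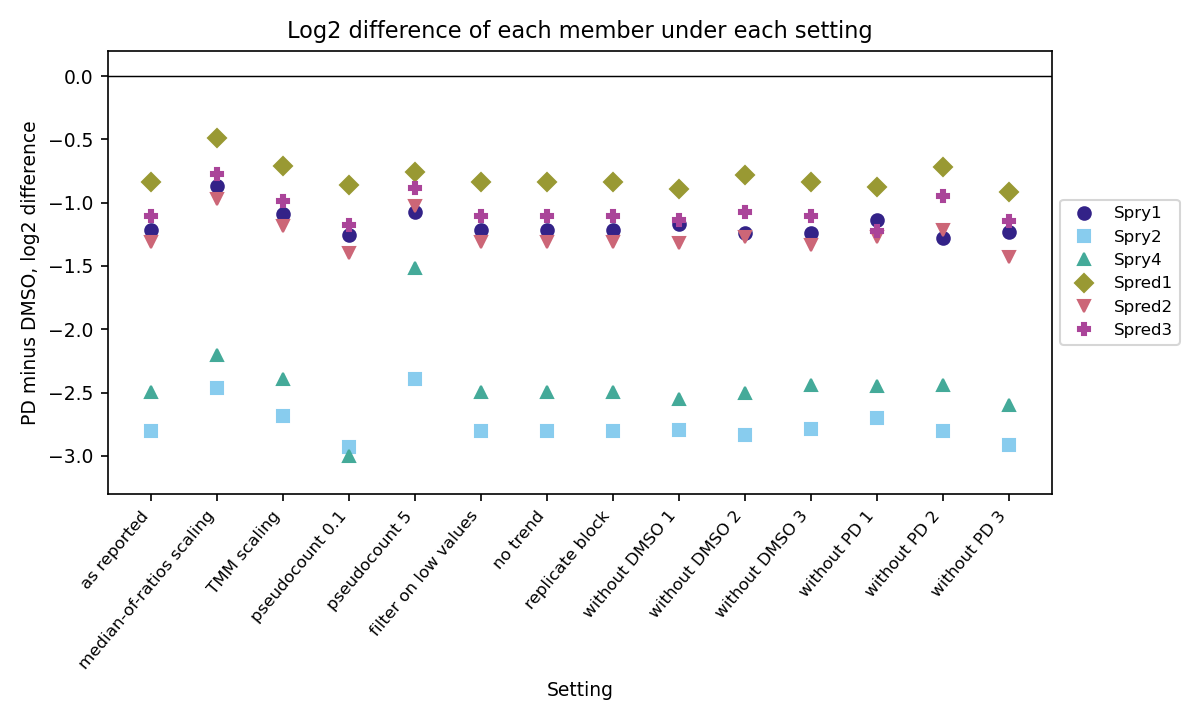
Log2 difference, PD minus DMSO (y axis), of each member under the reported setting and each alternative (x axis), on log2(value + pseudocount). Every point is under 0, from -2.998 for Spry4 with a pseudocount of 0.1 to -0.49 for Spred1 with median-of-ratios scaling.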

How the data were processed

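RNA-seq of 6 samples, DMSO and PD with n = 3 each, was analysed from a table of normalized values. Trimmomatic, HISAT2, HTSeq, DESeq2 and the build mm10 appear in the submitters' processing notes; their versions and roles, the annotation and any use of strand were not given in the sources used here. Per the file headers and values, the deposited signal is normalized on a scale that is not stated and rounded to 2 decimals, so it is not counts and the depth is unknown. The authors also deposited a fold (a ratio, PD over control), the log2 of it and, per gene, p-values before and after adjustment, and kept only genes past their thresholds. No column of per-sample values lacked a sample.

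limma 3.58.1 (R 4.3.3) was fitted with a trend to log2(value + 1) over all 4994 genes, without a filter on low values or a block, and p-values were adjusted by Benjamini-Hochberg over all of them. The fit was tested on simulated data in which most genes were unchanged. All genes of this table were selected as changed, so that test gives no error rate for these data. Fold changes on this scale understate changes of low genes. Pairs of members were compared by exact permutation in scipy 1.17.1 (Python 3.11.15). Of the identifiers, 4988 were found in GENCODE M21 (GRCm38) and 6 were not; coordinates are 1-based. No transcript of another gene matched a member at 95% identity over 80% of its length (blastn 2.17.0). Where a symbol stood on more than 1 row, the higher row was used.

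The members and lists were chosen with earlier results of these data known. Named are all members, at most 4 genes per pathway role with the smallest adjusted p, and the 5 genes nearest in profile whose mean reached 5 in either group, with no predicted or pseudogene name; any further gene was picked with its values in view. The motifs were chosen after the sequences were seen. Alternatives covered scaling, pseudocounts, a filter, a fit without the trend, one with a replicate block, and the removal of each library. The replicate numbers were not taken as pairs, since the labels do not say so and same-numbered deviations correlated at -0.032 to -0.0013.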

Additional observations from a re-analysis of the deposited data

How the results depend on the processing

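Every member kept its direction and its call under all 13 alternatives, namely 2 scalings, 2 pseudocounts, a filter, no trend, a replicate block and each of 6 libraries left out. All genes of the table had been selected on this contrast, and 4429 to 4803 of 4994 were called (4159 of 4314 with the filter). Keeping a call is thus no particular trait of the members. With a replicate block the adjusted p of the members (limma) was at most 0.00108, the log2 differences did not move, and 4761 genes were called in place of 4770, so the block changed no call of a member. Same-numbered libraries did not deviate together (r of -0.032 to -0.0013). Over the libraries left out in turn, the log2 differences ranged from -2.91 to -2.70 for Spry2, -2.60 to -2.44 for Spry4, -1.28 to -1.14 for Spry1, -1.43 to -1.22 for Spred2, -1.23 to -0.94 for Spred3 and -0.92 to -0.72 for Spred1. Median-of-ratios scaling moved the median over all genes from -0.42 to -0.18 and gave 4429 calls, with 2167 lower. Of the 47 other pathway genes, Rasa3 and Junb lost their call there, at log2 differences of -0.39 and -0.41 (limma adjusted p = 0.0671 and 0.0598), and no other pathway gene lost its call or direction under an alternative that tested it. A few differences in change between members turned sign, and the cause was not tested. Spry2 against Spry4 was 0.0712 with a pseudocount of 0.1. Spry1 against Spred2 was -0.0468 with a pseudocount of 5 and ranged from -0.058 (without PD replicate 2) to 0.2039 (without PD replicate 3) over the libraries left out. Spry1 against Spred3 ranged from -0.3324 (without PD replicate 2) to 0.0876 (without PD replicate 1). Read depth is unknown, so how far it limits Spry4, with low PD values of 1.49 to 2.11, is not known.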
